A study of Homo sapiens with 6 samples.

Results

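The proteasome genes described here are all genes whose NCBI symbol starts with PSMA, PSMB, PSMC, PSMD, PSME or PSMF followed by a digit. They were found through the single Entrez identifier that the deposited annotation gives a probe set. Of the 18712 genes measured this way, 45 were members. The comparison was made in U251, a human glioma cell line, between cells that received a control hairpin by lentivirus (shCtrl) and cells that received a hairpin against CPVL (shCPVL), a gene for a serine carboxypeptidase. Each group held 3 arrays. All cells carried a lentiviral hairpin, and no untransduced cells were among the samples. The labels do not say how many hairpin sequences were used against CPVL, nor whether the arrays of a group came from separate cultures, so the p-values below rest on the spread among the arrays, part of which could be technical.

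The proteasome degrades proteins marked with ubiquitin. Its barrel-shaped core particle has outer rings of alpha subunits, encoded by PSMA genes, and inner rings of beta subunits, encoded by PSMB genes, of which PSMB5, PSMB6 and PSMB7 encode the constitutive proteolytic subunits. The regulatory particle, with a base of ATPases (PSMC genes) and other subunits and a lid (both PSMD genes), recognises and unfolds substrates and feeds them into the core. Interferon-exposed cells and many leukocytes make the immunoproteasome, in which PSMB8 takes the place of PSMB5, PSMB9 that of PSMB6 and PSMB10 that of PSMB7. PSME1 and PSME2 encode the PA28 activator, which caps the core and is also induced by interferon. The peptides made by these particles are loaded onto class I molecules for presentation to T cells.

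The start regions of the 5 interferon-inducible members are shown first, because 4 of these genes were the only members that rose and PSMB10 was the one that did not. The stretches run from 100 bases before to 20 bases after an annotated transcript start, 5′ to 3′ on the strand of the gene, and come from RefSeq on GRCh38.p14. Capitals mark every match, on either strand, to GAAA followed by any 2 bases and a second GAAA, the core letters of the interferon-stimulated response element.
PSMB8, chr6:32844028-32844147, minus strand: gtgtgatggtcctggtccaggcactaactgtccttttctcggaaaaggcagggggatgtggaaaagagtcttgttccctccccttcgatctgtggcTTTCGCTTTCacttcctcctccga
PSMB10, chr16:67936831-67936950, minus strand: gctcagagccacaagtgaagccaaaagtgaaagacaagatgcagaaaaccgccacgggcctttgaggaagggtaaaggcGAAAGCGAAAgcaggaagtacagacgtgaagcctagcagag
PSME1, chr14:24136094-24136213, plus strand: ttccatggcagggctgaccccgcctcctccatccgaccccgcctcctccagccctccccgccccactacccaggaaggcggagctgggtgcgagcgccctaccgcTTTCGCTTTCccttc
PSME2, chr14:24146591-24146710, minus strand: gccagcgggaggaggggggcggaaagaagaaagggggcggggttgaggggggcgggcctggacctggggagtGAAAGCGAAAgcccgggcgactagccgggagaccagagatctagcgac
PSMB9, chr6:32854092-32854211, plus strand: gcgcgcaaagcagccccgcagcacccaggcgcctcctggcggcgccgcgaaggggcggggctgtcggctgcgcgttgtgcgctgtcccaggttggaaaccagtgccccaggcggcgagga

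The same 10 letters, GAAAGCGAAA or their reverse complement TTTCGCTTTC, stood near the start of PSMB8, PSMB10, PSME1 and PSME2. They lay at bases −4 to 6 around the start in PSMB8, −21 to −12 in PSMB10, 6 to 15 in PSME1 and −28 to −19 in PSME2, counted without a base 0. PSMB8 has 2 annotated starts, and the match was at 1 of them. In windows of 250 bases before to 50 after each start, 4 of the 5 interferon-inducible members held the looser pattern, with any bases between the GAAA copies. So did 2 of the 35 other members with a window, PSMB4 and, at 1 of its starts, PSMA4, both with other bases in the gap, and 4.38% of 27305 genes. PSMB9 had no match in its window. Other letters searched on both strands were TTCNNNGAA, a core that STAT factors bind, and TGACNNNGC and TGAGNNNGC, the letters of the antioxidant response element through which NRF1 (gene NFE2L1) acts on proteasome genes. TTCNNNGAA stood in 1 of the 5 (PSMB8) and 7 of the 35 other windows (9.38% of all genes). TGACNNNGC stood in 3 of the 5 (PSMB9, PSME1 and PSME2) and 10 of the 35 (16.1% of all genes), and TGAGNNNGC in 0 of the 5 and 12 of the 35 (21.6% of all genes). Matches to different motifs overlapped in 1 gene, PSMB5 (TTCNNNGAA with TGAGNNNGC). A match is a description of the letters and not a site in use.

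Expression was deposited as log2 RMA values, in which a difference of 1 is a 2-fold difference in signal. Each gene was represented by its brightest probe set and tested with limma over all 18712 genes. Genes with a Benjamini-Hochberg adjusted p under 0.05 are said to have risen or fallen in shCPVL. CPVL itself fell by 0.99 (SE 0.07, limma adjusted p = 8.3e-05). Arrays of a group correlated at 0.9974 to 0.9986, and the mean of the hybridisation controls was 0.31 higher in shCPVL (two-sided exact permutation p = 0.1, the smallest that 3 against 3 arrays allow). The median of the background probe sets lay between 3.51 and 3.65 and their mean between 4.84 and 4.98. Of 7 astroglial and glioma markers, the summed linear signal was 32490 to 32646 in shCtrl and 29299 to 29861 in shCPVL. GFAP was among the 4 that fell (57.1%, against 11.6% of all genes), and VIM and NES among the 3 that did not pass. In bulk RNA, fewer cells of a kind and less RNA per cell cannot be told apart.

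Among the 45 members, 4 rose and 10 fell. Over all genes 20.1% were called, 8.45% higher and 11.6% lower. The 4 that rose (8.89% of the members) are a share close to that background, and all 4 were among the 5 interferon-inducible genes: PSMB9, PSMB8, PSME2 and PSME1. None of the other 40 rose and 10 of them (25%) fell. Their median log2 change was −0.11, against −0.01 over all genes, and 34 of these 40 values were below 0. The groups did not overlap in 6 members that were higher and 24 that were lower in shCPVL, where 16.1% and 19.8% of all genes did so (35.9% in either direction). The count of members that fell rested in part on single arrays and on the use of probe sets. It was 5 without shCtrl replicate 1, without shCPVL replicate 2 or without shCPVL replicate 3, 6 without shCtrl replicate 2, and 20 when the variance prior followed the intensity. Without shCtrl replicate 1, 11.1% of the members and 7.75% of all genes fell; without shCPVL replicate 2 it was 11.1% and 7.65%, without shCPVL replicate 3 11.1% and 9.55%, and without shCtrl replicate 2 13.3% and 9.07%. With the prior that follows intensity it was 44.4% and 14.7%. With the mean or the median over the probe sets of each gene 7 members fell (15.6%), against 11.6% and 10.4% of all genes. When the 40% of genes with the lowest signal were dropped, 15 of 43 members fell (34.9%), against 23.3% of the genes kept. PSMA4, PSMD9, PSMD2, PSMD1 and PSMC3IP fell in every setting and with every array left out.

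**Figure D1:**
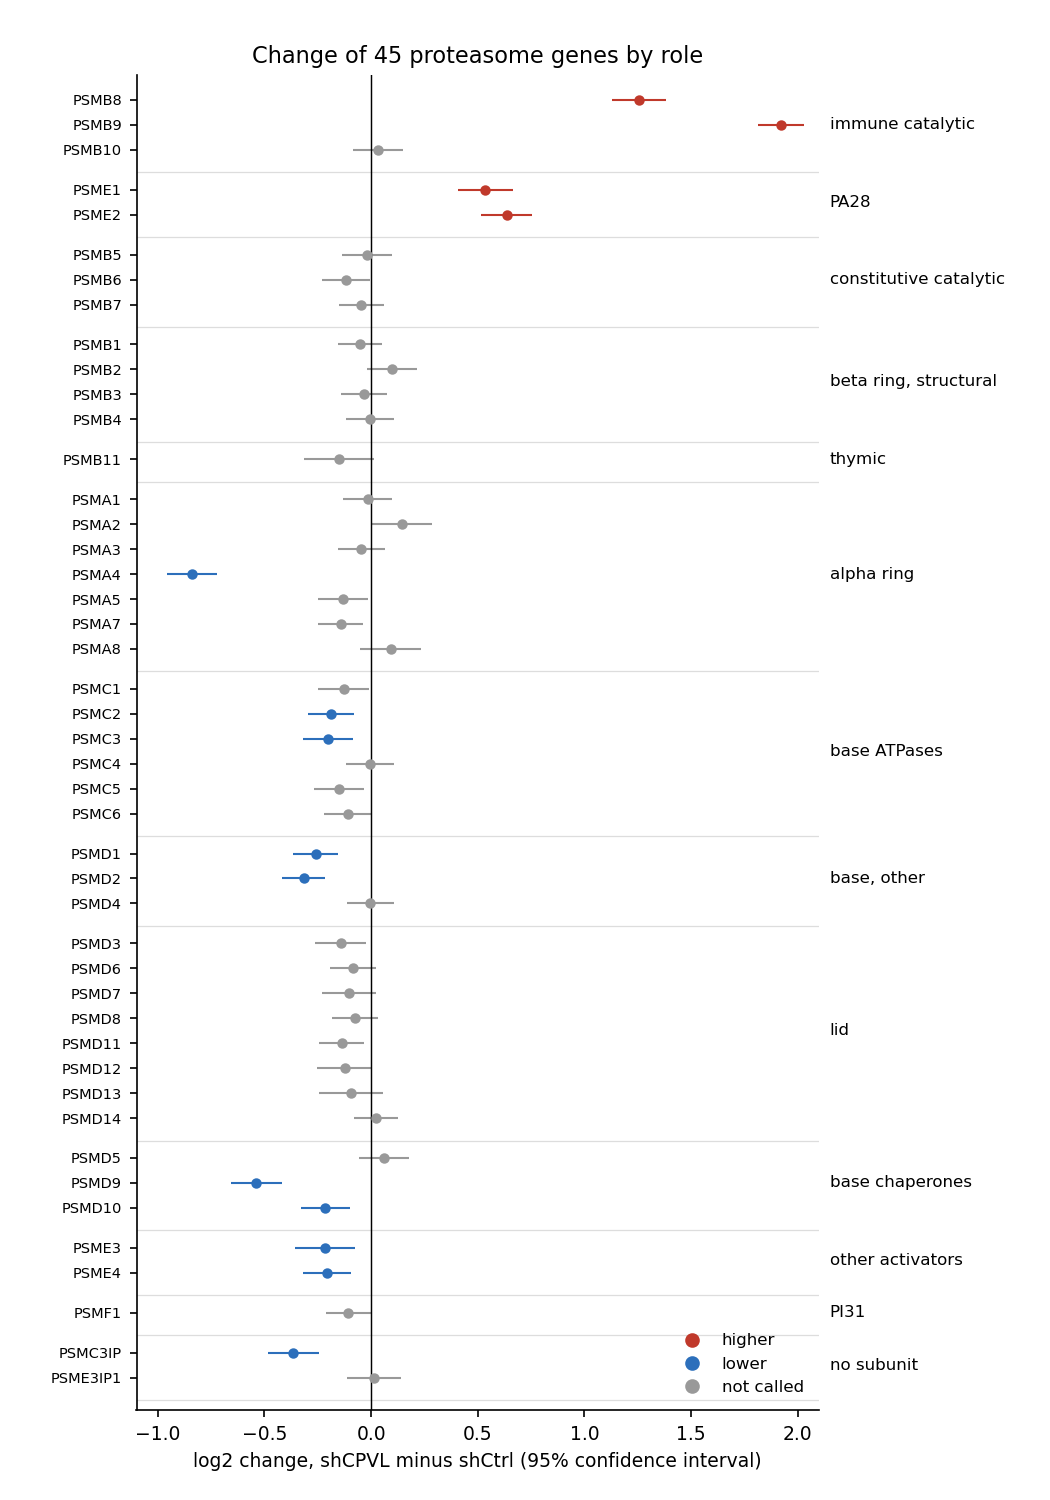
Log2 change in signal, shCPVL minus shCtrl, of the 45 genes by role, with 95% confidence intervals from limma. Red points rose, blue points fell and grey points did not pass; PSMB9 (1.92) and PSMB8 (1.26) lie farthest to the right and PSMA4 (−0.84) farthest to the left.

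The immune catalytic subunits split. PSMB9, which encodes the immune form that replaces PSMB6, had log2 values of 7.47, 7.54 and 7.54 in shCtrl and 9.42, 9.45 and 9.44 in shCPVL. All 3 shCPVL arrays lay far above all shCtrl arrays, a change of 1.92 (SE 0.05, 3.79-fold, adjusted p = 2.1e-07). PSMB8, whose product replaces that of PSMB5, read 9.50, 9.64 and 9.51 in shCtrl and 10.80, 10.82 and 10.80 in shCPVL. It rose by 1.26 (SE 0.06, 2.39-fold, adjusted p = 5.5e-06), again without overlap. PSMB10, whose product replaces that of PSMB7, read 9.87, 9.93 and 9.81 in shCtrl and 9.87, 9.94 and 9.90 in shCPVL. Its arrays overlapped, and the change of 0.03 (SE 0.05, adjusted p = 0.75) had a 95% confidence interval of −0.08 to 0.15. PSMB10 was well above the background probe sets in both groups.

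Other probe sets of these genes behaved alike where they were bright. The second PSMB8 probe set changed by 1.38 and the second PSMB9 probe set by 1.92. Each gene also had a dim probe set, at a mean of 4.29 for PSMB8 and 4.60 for PSMB9, near the background mean, with changes of 0.15 and 0.29. The 3 probe sets of PSMB10, with means of 9.48 to 9.89, differed between the groups by −0.04 to 0.03, and none separated them.

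The constitutive counterparts moved little. PSMB5 ranged from 11.17 to 11.28 in shCtrl and from 11.22 to 11.23 in shCPVL, and the groups overlapped (change −0.02, 95% confidence interval −0.14 to 0.10). PSMB7, at 11.521 to 11.581 in shCtrl and 11.504 to 11.52 in shCPVL, was narrowly lower in every shCPVL array. It differed by −0.05 (−0.15 to 0.06), and the groups overlapped in its other probe sets. PSMB6, at 12.09 to 12.18 in shCtrl and 11.996 to 12.047 in shCPVL, was lower in every shCPVL array, and its difference of −0.12 (−0.23 to −0.01) did not pass over all genes (adjusted p = 0.14). It passed with the variance prior that follows intensity.

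**Figure D2:**
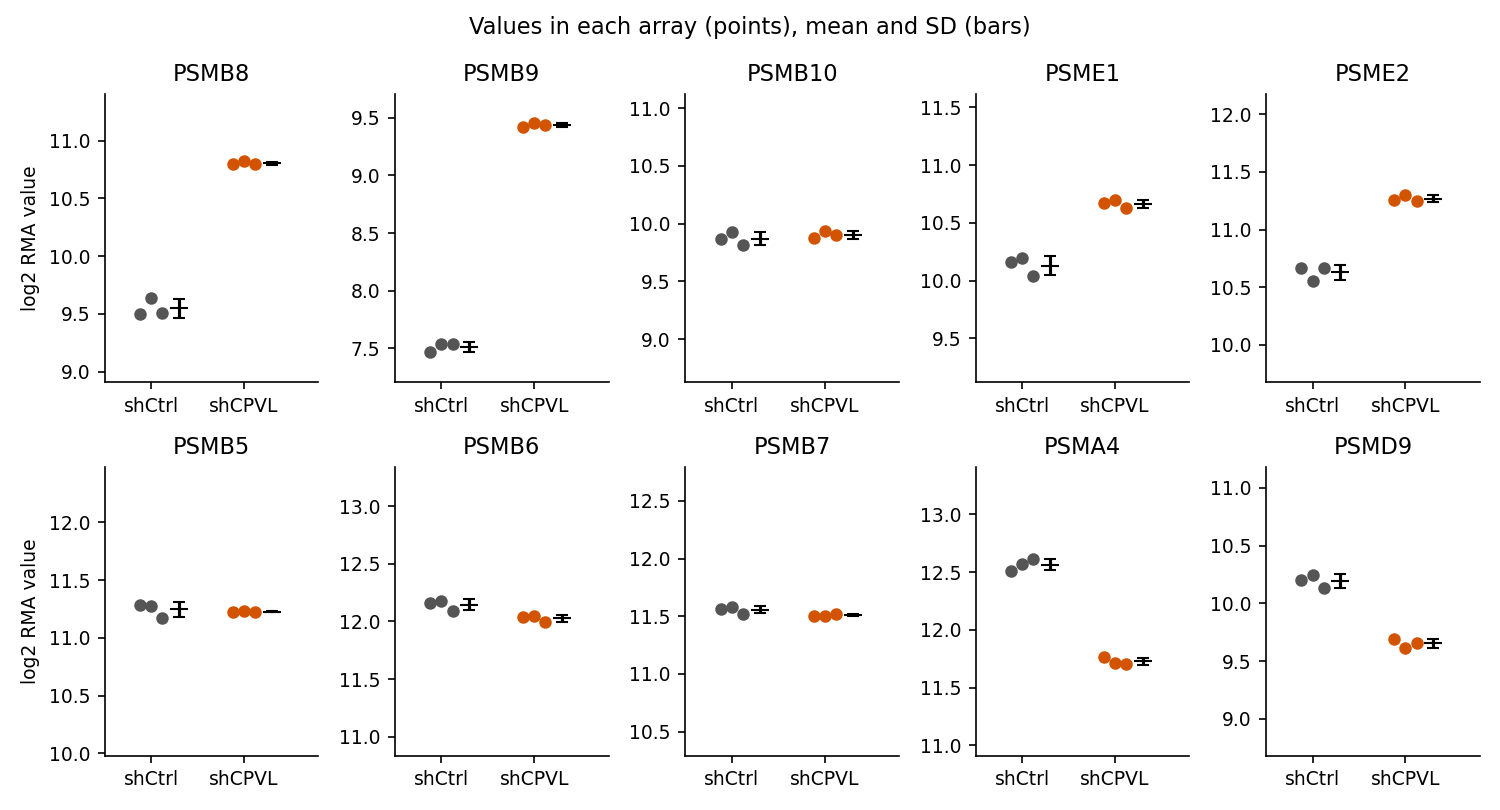
Log2 RMA value of 10 genes in each of the 6 arrays (points), with the mean and SD of 3 arrays beside each group; every panel spans the same range on its axis. The groups separate upward for PSMB8, PSMB9, PSME1 and PSME2 and downward for PSMA4 and PSMD9, and overlap for PSMB10 and PSMB5. For PSMB6 and PSMB7 every shCPVL array is slightly below every shCtrl array.

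Taking each immune subunit minus its counterpart within an array asks how far the balance of the transcripts moved. Only the change of this difference is read, because the levels of different probe sets are not comparable. For PSMB9 minus PSMB6 the difference was −4.63 ± 0.07 (SD, n = 3) in shCtrl and −2.59 ± 0.03 in shCPVL, a change of 2.04, so the ratio of signals rose 4.11-fold (exact permutation p = 0.1). The difference PSMB8 minus PSMB5 went from −1.70 ± 0.08 (SD, n = 3) to −0.42 ± 0.01, a 2.42-fold rise of the ratio (exact permutation p = 0.1). In PSMB10 minus PSMB7 it went from −1.68 ± 0.03 (SD, n = 3) to −1.61 ± 0.04, a 1.06-fold change (exact permutation p = 0.1). The groups did not overlap in any of these pairs, yet the third pair moved by 0.08 only, and by −0.01 with the mean of all probe sets of each gene. Between the immune subunits, PSMB8 minus PSMB10 changed by 1.22 and PSMB9 minus PSMB10 by 1.89 (both exact permutation p = 0.1). Over the 5 pairs compared every adjusted p was 0.1, the smallest this design allows.

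**Figure D3:**
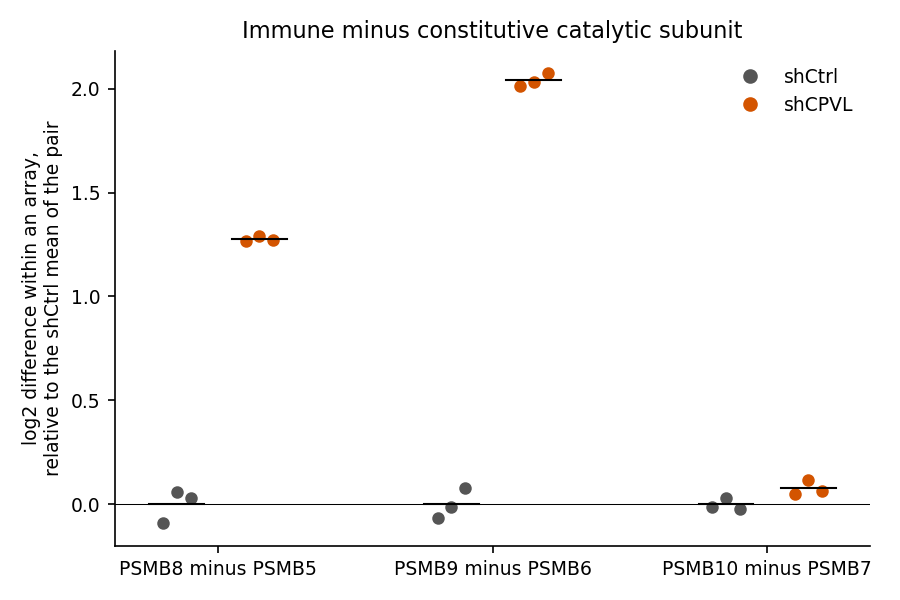
Log2 difference between an immune catalytic subunit and its constitutive counterpart within each array, set relative to the shCtrl mean of the pair; points are arrays and lines are group means. The shCPVL arrays lie 1.28 higher for PSMB8 minus PSMB5, 2.04 higher for PSMB9 minus PSMB6 and 0.08 higher for PSMB10 minus PSMB7.

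Both PA28 genes rose by similar amounts. PSME1 read 10.16, 10.19 and 10.04 in shCtrl and 10.67, 10.70 and 10.63 in shCPVL, a rise of 0.54 (SE 0.06, 1.45-fold, adjusted p = 5.0e-04). PSME2 read 10.67, 10.56 and 10.67 in shCtrl and 11.25, 11.30 and 11.24 in shCPVL, a rise of 0.64 (SE 0.05, 1.55-fold, adjusted p = 1.4e-04). Every shCPVL array was above every shCtrl array in both genes, and the 3 PSME1 probe sets were higher by 0.54 to 0.61. The single PSME2 probe set aligned to 4 places in the deposited annotation, so related sequences elsewhere may add to its signal. The other activators went the opposite way. PSME3, which encodes the nuclear PA28 gamma ring, fell by 0.22 (SE 0.06, adjusted p = 0.040), and PSME4, which encodes the PA200 cap, fell by 0.21 (SE 0.05, adjusted p = 0.019). Neither fall was shared by all probe sets. A second PSME3 probe set of nearly the same brightness differed by −0.01, and the 6 PSME4 probe sets differed by −0.21 to 0.09. Both calls were also lost without shCtrl replicate 1 or 2 or shCPVL replicate 2 or 3.

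In the order of genes along the chromosome, the measured genes TAP2, PSMB8, TAP1 and PSMB9 followed one another on chromosome 6, and all 4 rose (by 0.70, 1.26, 1.78 and 1.92). TAP1 and TAP2 encode the transporter that carries peptides into the endoplasmic reticulum. The genes on either side, HLA-DOB (0.01) and PPP1R2P1 (−0.07), did not pass. On chromosome 14, PSME1 and PSME2 were separated by EMC9 (−0.10, adjusted p = 0.18), and next to PSME2 came RNF31 (0.33) and IRF9 (2.07), which rose. Of the 3 nearest measured genes on each side of PSMB10 on chromosome 16, none passed, with changes of −0.15 to 0.06.

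In the alpha ring 1 gene stood apart. PSMA4, which encodes an alpha ring subunit, read 12.51, 12.57 and 12.61 in shCtrl and 11.76, 11.71 and 11.71 in shCPVL. All shCPVL arrays were below all shCtrl arrays, a fall of 0.84 on the log2 scale (SE 0.05, adjusted p = 2.9e-05), which leaves 0.56 of the control signal. Its other probe sets were at −0.80 and −0.92, and in all 3 the groups did not overlap. Of the other alpha ring genes none passed. PSMA1, PSMA3, PSMA5 and PSMA7 lay between −0.14 and −0.02, and PSMA2 was at 0.15 (adjusted p = 0.15). With the prior that follows intensity PSMA5 and PSMA7 fell and PSMA2 rose. PSMA5 and PSMA7 also fell with the dimmest genes left out, and PSMA7 after a further quantile normalization. PSMA8, the testis form, was at 3.35 in shCtrl and 3.45 in shCPVL, at the background. Of the 3 nearest measured genes on each side of PSMA4, IREB2 rose by 0.49 and CHRNA5 fell by 0.45, and 4 did not pass.

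**Figure D4:**
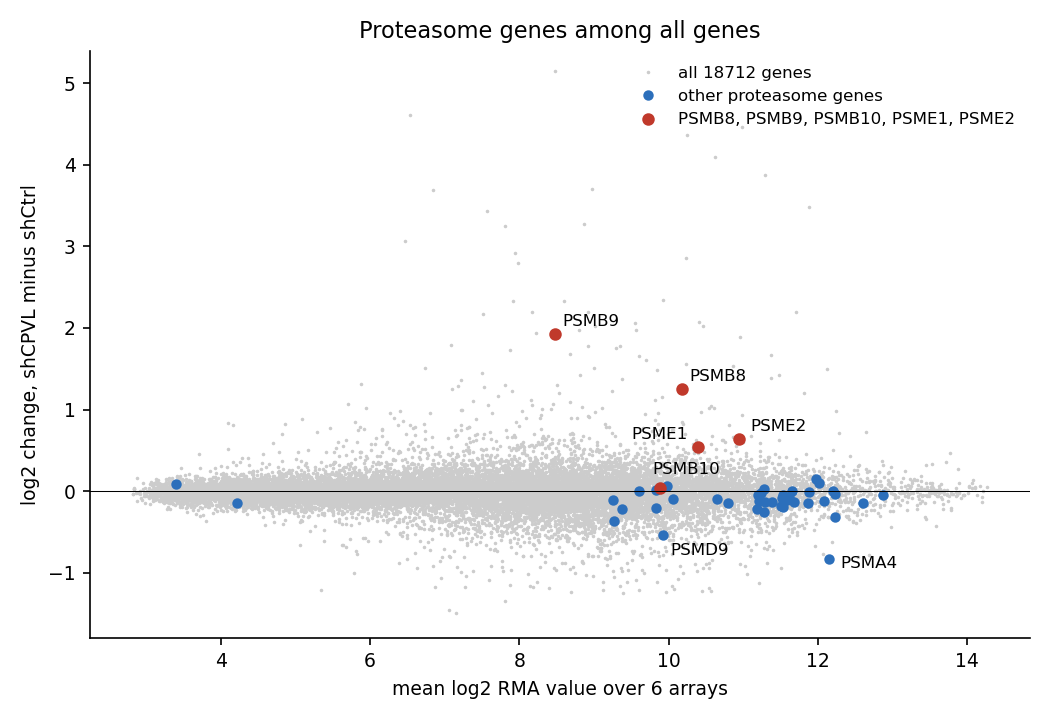
Log2 change, shCPVL minus shCtrl, against the mean log2 RMA value over 6 arrays for all 18712 genes (grey), the 40 other proteasome genes (blue) and PSMB8, PSMB9, PSMB10, PSME1 and PSME2 (red). The blue points lie mostly just below 0, with PSMA4 (−0.84) and PSMD9 (−0.54) lowest.

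The structural beta genes did not pass. Their changes ran from −0.05 to 0.10, with PSMB2 at 0.10 (adjusted p = 0.24) and PSMB4 at −0.00 (adjusted p = 0.97). PSMB2 passed with the variance prior that follows intensity. PSMB11, the catalytic subunit of the thymus, was below the background mean, at 4.29 in shCtrl and 4.14 in shCPVL (adjusted p = 0.21). PSMA6 had no probe set of its own, and the one it shares with another identifier differed by −0.03.

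In the regulatory particle, 4 of 17 genes fell (23.5%, against 11.6% of all genes) and 0 rose. Of the 17 values 16 were below 0 (median −0.12, against −0.01 over all genes). With the variance prior that follows intensity 11 of the 17 fell, where 14.7% of all genes did. With the dimmest 40% of genes left out 7 fell, where 23.3% of the genes kept did. Without shCtrl replicate 1, shCtrl replicate 2, shCPVL replicate 2 or shCPVL replicate 3 only PSMD1 and PSMD2 fell. Without 1 of these arrays, 7.65% to 9.55% of all genes fell. With the mean or the median over probe sets 3 of the 17 fell, PSMC3, PSMD1 and PSMD2, where 11.6% and 10.4% of all genes did. PSMD2, the base scaffold that contacts ubiquitin-like domains, read 12.39, 12.38 and 12.37 in shCtrl and 12.06, 12.08 and 12.05 in shCPVL. It fell by 0.32 (SE 0.04, adjusted p = 0.0018), and its 3 probe sets were at −0.33 to −0.30. PSMD1, the other large base scaffold, read 11.39, 11.43 and 11.40 in shCtrl and 11.12, 11.15 and 11.18 in shCPVL, a fall of 0.26 (SE 0.05, adjusted p = 0.0056). In both scaffold genes the groups did not overlap. Of the 6 ATPases that unfold substrates, PSMC3 fell by 0.20 (SE 0.05, adjusted p = 0.027) and PSMC2 by 0.19 (SE 0.05, adjusted p = 0.026). Both calls were lost without shCtrl replicate 1 or 2 or shCPVL replicate 2 or 3, and that of PSMC3 also without shCPVL replicate 1. PSMC2 differed by 0.02 when the median over its 3 probe sets was taken. The other ATPases lay between −0.15 and −0.00, and the PSMC1 probe set aligned to 2 places. PSMD4, a ubiquitin receptor, was at 11.65 and 11.64 (adjusted p = 0.98).

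None of the 8 lid genes passed. The groups did not overlap in 5 of them, all lower, where 19.8% of all genes were lower without overlap. With the prior that follows intensity PSMD3, PSMD6, PSMD11 and PSMD12 fell (14.7% of all genes did). With the dimmest genes left out PSMD3 and PSMD11 fell (23.3% of the genes kept did). The changes of the 8 lid genes ran from −0.14 in PSMD3 (adjusted p = 0.094) to 0.02 in PSMD14 (adjusted p = 0.81), which encodes the deubiquitinase of the lid. Among the chaperones that help assemble the base, PSMD9 read 10.20, 10.25 and 10.13 in shCtrl and 9.69, 9.62 and 9.66 in shCPVL. That fall of 0.54 (SE 0.05, adjusted p = 3.2e-04) was the second largest among the members, and its dimmer probe set was at −0.36. PSMD10, also known as gankyrin, fell by 0.21 (SE 0.05, adjusted p = 0.019), a call lost without shCtrl replicate 1, shCPVL replicate 2 or shCPVL replicate 3. PSMD5 differed by 0.06 (adjusted p = 0.52). PSMF1, which encodes the inhibitor PI31, differed by −0.11 (adjusted p = 0.15). The rule also took PSMC3IP, a meiotic recombination factor that is named after its partner and is no subunit, which fell by 0.36 (SE 0.05, adjusted p = 0.0019), and PSME3IP1, which differed by 0.01.

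**Figure D5:**
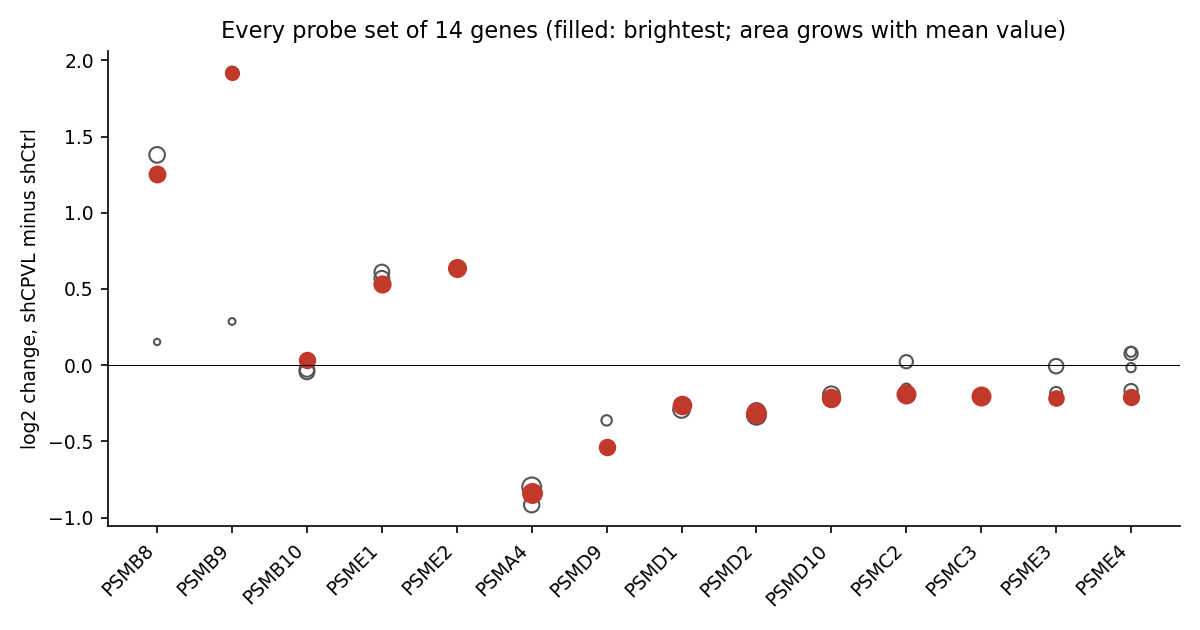
Log2 change, shCPVL minus shCtrl, of every probe set of 14 genes; filled points are the brightest probe set of each gene and larger points are brighter. The probe sets of PSMA4, PSMD2 and PSME1 stay together, while those of PSME4 span −0.21 to 0.09 and the dim ones of PSMB8 and PSMB9 lie at 0.15 and 0.29.

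Genes that act with the proteasome were read from lists of related genes. Of 5 assembly chaperones outside the symbol rule, PSMG1 fell by 0.21 and PSMG3 by 0.20, while POMP, which matures the core and assists immunoproteasome assembly, differed by −0.03 (adjusted p = 0.78). The call of PSMG1 was lost without shCtrl replicate 2 or 3 or shCPVL replicate 2 or 3, and that of PSMG3 without any 1 array other than shCtrl replicate 3. Of 13 measured deubiquitinases, shuttles and regulators, which include the member PSME3IP1, 5 fell (38.5%, against 11.6% of all genes) and 0 rose. RAD23B, a shuttle that brings ubiquitylated proteins to the proteasome, fell by 1.23 (SE 0.05), UBE3C by 0.53 (SE 0.06), UBQLN4 by 0.43 (SE 0.06) and UCHL5 by 0.31 (SE 0.05). UCHL5 differed by −0.08 when the median over probe sets was taken. None of the 4 ubiquitin genes passed, with UBB at −0.06 (adjusted p = 0.42). NFE2L1, the NRF1 transcription factor of proteasome genes, fell by 0.20 (SE 0.05, adjusted p = 0.019), a call lost without shCtrl replicate 1, shCtrl replicate 2 or shCPVL replicate 2. Its relative NFE2L2 rose by 0.37 (SE 0.05), and the small partners MAFK and MAFF by 0.33 and 0.28. Another small partner, MAFG, differed by 0.02 (adjusted p = 0.90). In this list of 8 genes around NRF1, 3 rose (37.5%) and 1 fell (12.5%), where 8.45% and 11.6% of all genes did. Without probe sets ending in x_at or s_at, MAFK differed by 0.07 and MAFF no longer passed. The call of MAFF was also lost with the mean or the median of probe sets and without shCtrl replicate 1.

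Of 8 transcription factors linked to the immune subunits, 6 rose (75%, against 8.45% of all genes) and 0 fell. IRF9 rose by 2.07 (SE 0.06), NLRC5, a coactivator of class I genes, by 1.45 (SE 0.05) and IRF1 by 0.47 (SE 0.07). STAT2 rose by 1.15, and differed by −0.03 without probe sets ending in x_at or s_at. Among 16 class I processing and loading genes, 12 rose (75%, against 8.45% of all genes) and 1 fell (6.25%, against 11.6%). Their median change was 0.58, against −0.01 over all genes. TAP1 went from 8.45 ± 0.05 (SD, n = 3) to 10.24 ± 0.05, a 3.44-fold rise beside the 3.79-fold rise of PSMB9. The class I gene HLA-F rose 4.57-fold, HLA-B 2.83-fold and HLA-C 2.69-fold, and CANX, a chaperone of class I folding, fell by 0.36. With other uses of the probe sets the smallest log2 changes were 0.38 for HLA-F, 0.35 for HLA-B and 0.47 for NLRC5, all still called.

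Leukocytes hold immunoproteasome without added interferon. Of 10 leukocyte markers none passed, and their summed linear signal was 822.8 to 889.3 in shCtrl and 829.3 to 883.6 in shCPVL. PTPRC, the pan-leukocyte antigen CD45, was at 3.41 and 3.37, at the background. The groups did not overlap in 1 marker that was higher in shCPVL, CD68 (0.23), and 1 that was lower, LYZ (−0.09). Over all genes 16.1% and 19.8% did so. Whether cell content bears on the rises was not tested. Of 5 endothelial markers none passed either, with sums of 703.8 to 715.2 and 695.5 to 722.5.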

How the data were processed

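The deposited series table holds log2 values of 49395 probe sets on 6 arrays. RMA is named in the submitters' processing notes, without a version, and the genome build is not stated there. After RMA, a change is relative to the other probe sets of an array. A second table holds the authors' own comparison: per the file headers, each probe set has a p-value, an FDR, a logFC, an absolute FC and a Fold Change. From their values, the deposited logFC is a log2 fold change, the absolute FC a linear ratio, and the deposited Fold Change was treated as a signed score. The log2 fold changes matched the differences between group means of the first table. Entrez identifiers came from this second table and symbols from RefSeq (GRCh38.p14, by identifier only). The build of its alignments is not named. Of the protein-coding genes that the symbol rule names in RefSeq, 45 had a probe set with a single identifier and 1, PSMA6, only a shared one. The 51 pseudogenes and 7 non-coding RNA genes of the rule had none.

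The brightest probe set on average across the 6 arrays stood for each gene, with no filter on low values, which gave 18712 genes. Differences (shCPVL minus shCtrl) were tested with limma 3.58.1 in R 4.3.3 (lmFit, eBayes without trend, two-sided, Benjamini-Hochberg over all genes). The script was tested on simulated data. Single pairs were compared by two-sided exact permutation tests over arrays. Precision is limited by how few arrays there are. The members, lists and comparisons were chosen with earlier results of these data known. Named are the 5 interferon-inducible members, PSMB5 to PSMB7, every called member, the greatest and least change of roles without a call, dim members, 4 called genes (or 2 others) per related list and 7 set regulators; neighbours and other members were named by position or to complete a count. Values of some genes that this rule names are not reported here. Alternatives were another normalization or centring, a replicate block, other variance priors, other uses of probe sets, a filter on dim genes and leaving out each array. Background correction could not be varied, since it is part of the deposited values. The pairs of PSMB8 and PSMB9 with PSMB10 were added after values were seen.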

Additional observations from a re-analysis of the deposited data

How the results depend on the processing

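The rises of PSMB8, PSMB9 and PSME1 were called under all 15 alternatives, and that of PSME2 under the 14 that measured it, since its only probe set ends in s_at. The number of members that rose was 3 to 6 and that of the immune members 3 or 4. Members that fell numbered 20 with the intensity trend and 7 with the mean or the median of probe sets. When 1 array was left out, 5 to 10 members fell and 2380 to 3282 of all genes were called. Changes of the catalytic pairs when 1 array was left out were 1.23 to 1.31 for PSMB8 minus PSMB5, 2.01 to 2.08 for PSMB9 minus PSMB6 and 0.06 to 0.09 for PSMB10 minus PSMB7. With the mean of probe sets they were 0.93, 1.49 and −0.0057. Among the named genes called in the main fit, the sign turned for PSMC2 (0.023) with the median of probe sets. Without x_at and s_at probe sets it turned for PSME4 (0.077) and STAT2 (−0.032). The cause was not tested. Genes without a call also crossed 0 and stayed uncalled: PSMB10 (−0.044 to 0.062), PSMB5 (−0.057 to 0.031), PSMB4 (−0.031 to 0.010) and POMP (−0.098 to 0.019). With the replicate number as a block (replicate block), 4 members rose and 8 fell (17.8%), where 6.90% and 9.55% of all genes did. In that setting 3079 genes were called, and PSMC2, PSMC3, PSMG1 and PSMG3 lost their calls. Same-numbered arrays deviated together at −0.28, 0.12 and 0.26, so the numbers were not taken as pairs. Of 714 values of named genes under alternatives, 656 stayed on the same side of the threshold, 49 lost their call and 6 gained one. The other 3, all of genes called in the main fit, turned sign. Dim probe sets, such as those of PSMA8 and PSMB11, limit what can be seen.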

Other observations

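In the authors' deposited table, 11 of the 110 probe sets of these genes were higher and 33 lower in the knockdown at an FDR under 0.05, where 23.9% of all 49293 probe sets other than controls were under that threshold. Among the 45 brightest probe sets, the authors' deposited table had 6 higher and 19 lower. The share of 23.9% covers both directions and all probe sets other than controls. It is therefore no background for the counts of 1 direction or of brightest probe sets. In the authors' deposited table PSMB10 had an FDR of 0.70 and PSMA4 one of 9.1e-14.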
